A study of Mus musculus with 35 samples.

Results

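The 10 genes described here make, carry and break down the monoamines dopamine, noradrenaline and serotonin, and they were taken by symbol from the 35976 gene symbols that every library shares. They were read in 35 RNA-seq libraries from 18 mice that were wild type (WT) or carried the ataxin-7 knock-in genotype SCA7 266Q/5Q (a mouse model of infantile spinocerebellar ataxia type 7 with an expanded glutamine repeat, compared with WT littermates of both sexes and called SCA7 here). The libraries came from flash-frozen tissue of the medulla or the cervical spinal cord, and no treatment is given in the labels. The 9-week groups held 5 WT and 5 SCA7 mice and the 5-week groups 2 WT and 2 SCA7 mice, each with a library of either tissue. Of postnatal day 8 (P8) came 2 medulla libraries of each genotype, and from the cord 2 SCA7 libraries and 1 of WT.

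Dopamine and noradrenaline are made from tyrosine by tyrosine hydroxylase (*Th*), the rate-limiting enzyme, then by aromatic L-amino acid decarboxylase (*Ddc*) and, for noradrenaline, dopamine beta-hydroxylase (*Dbh*). Serotonin is made in the brain by tryptophan hydroxylase 2 (*Tph2*) and the same decarboxylase. The vesicular transporter VMAT2 (*Slc18a2*) loads all of these amines into vesicles, the noradrenaline (*Slc6a2*), dopamine (*Slc6a3*) and serotonin (*Slc6a4*) transporters take them back up, and monoamine oxidases A and B (*Maoa*, *Maob*) break them down. In the adult, many of the cell bodies that transcribe the synthesis and transport genes lie in the raphe and catecholamine nuclei of the brainstem and midbrain, and the spinal cord receives axons of some of them. Monoamine oxidases are made by many cell types, glia included. Serotonin and noradrenaline from the brainstem act on respiratory motor neurons.

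The promoters of 5 members are shown because their transcripts rose and fell together across the libraries. They are the 150 bases before and the 10 bases from the annotated start in RefSeq (GRCm38.p6), 5′ to 3′ on the strand of the gene. Capitals mark the 3 motifs searched on both strands. TGACGTCA is the cAMP response element. TATAAA is the TATA box. GGGCGG is the GC box, which stands in these lines as CCGCCC where it lies on the opposite strand.
*Th* promoter, chr7:142899986-142900145, minus strand: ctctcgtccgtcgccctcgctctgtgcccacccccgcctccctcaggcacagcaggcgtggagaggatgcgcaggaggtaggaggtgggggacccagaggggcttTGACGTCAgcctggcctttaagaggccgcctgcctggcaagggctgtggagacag
*Slc18a2* promoter, chr19:59260728-59260887, plus strand: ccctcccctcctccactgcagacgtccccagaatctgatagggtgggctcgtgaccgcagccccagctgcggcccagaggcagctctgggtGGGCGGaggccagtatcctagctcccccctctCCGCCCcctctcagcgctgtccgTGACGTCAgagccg
*Tph2* promoter, chr10:115185013-115185172, minus strand: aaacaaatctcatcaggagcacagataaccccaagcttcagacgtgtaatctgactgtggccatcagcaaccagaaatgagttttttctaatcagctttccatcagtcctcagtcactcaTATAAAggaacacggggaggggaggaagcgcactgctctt
*Slc6a4* promoter, chr11:76998447-76998606, plus strand: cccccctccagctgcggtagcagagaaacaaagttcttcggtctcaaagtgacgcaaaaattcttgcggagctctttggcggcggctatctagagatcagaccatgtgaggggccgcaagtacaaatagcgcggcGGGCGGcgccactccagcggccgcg
*Dbh* promoter, chr2:27165357-27165516, plus strand: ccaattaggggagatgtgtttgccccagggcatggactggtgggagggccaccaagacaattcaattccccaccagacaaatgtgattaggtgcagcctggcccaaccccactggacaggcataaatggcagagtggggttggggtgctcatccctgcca
*Th* and *Slc18a2* each held TGACGTCA, at position -45 of *Th* and -4 of *Slc18a2* counted from the start. Of 32851 mouse promoters of 300 bases (250 before the start and 50 from it), 1.79% held it, and 2 of the 8 members with a promoter entry did. TATAAA was held by 13.6% of all promoters and by *Tph2* (at -30) and *Ddc*. GGGCGG was held by 35.7% of all promoters and by *Th*, *Slc6a3*, *Slc6a4*, *Slc18a2* and *Maoa*. The *Dbh* window held none of the 3 motifs. These are matches of letters and no binding was measured.

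The depth of the libraries set what could be read of these genes. In 15 libraries, called deep here, the total was between 28969003 and 99353286 counts, and in the other 20, called shallow, between 95917 and 396417 counts. In every group of 9-week mice 2 libraries were deep and 3 shallow. A gene with 3 or fewer counts in a library was taken as at the counting limit, which equals 0.0262 to 0.122 CPM in the deep and 8.96 to 29.8 CPM in the shallow libraries (CPM, counts per 1000000 counts of the library size after TMM scaling). Of the 200 values of the 10 genes in the shallow libraries 166 were at this limit, against 7 of the 150 values in the deep libraries. *Maoa* was the only member above the limit in most shallow libraries, with 14 of 20.

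Several libraries went against their tissue label, and this touches every comparison with P8. *Hoxc8*, which marks the cord and was at 107 to 191 CPM in the deep 9-week cord libraries, was at 0.00 to 0.03 CPM in the deep 9-week medulla libraries. In the libraries labelled P8 medulla it was at 65.8 and 141 CPM in WT, 172 CPM in SCA7 replicate 1 and 16 counts in the shallow SCA7 replicate 2. Those labelled P8 cervical spinal cord had 0.02 CPM in the WT library and 0 counts in both SCA7 libraries. The labels were kept in all tests, and these libraries are called here by their labels. Within the medulla, the 5-week WT replicate 1 held almost none of the 6 hindbrain Hox genes counted (0.096 CPM in sum, against 40.2 CPM in WT replicate 2 and 40.7 to 125 CPM in the deep 9-week medulla libraries), and had the midbrain factors *Otx2* at 9.29 CPM and *En1* at 24.3 CPM. Of the shallow medulla libraries, the 9-week WT replicate 4 and the 5-week SCA7 replicate 1 had 1 count of these Hox genes each, and the others 6 to 25 counts. The 9-week WT replicate 4 was the highest of its group in *Tph2* (10 counts, 82.0 CPM) and *Slc6a4* (7 counts, 57.4 CPM). It was also the highest in *Th* (4 counts, 32.8 CPM), *Ddc* (6 counts, 49.2 CPM), *Dbh* (5 counts, 41.0 CPM), *Slc18a2* (5 counts, 41.0 CPM) and *Maoa* (11 counts, 90.2 CPM). Other libraries were the highest in *Slc6a2*, *Slc6a3* and *Maob*. *Atxn7*, the gene that carries the knock-in, had a log2 fold change at 9 weeks of 0.29 for the medulla (adjusted p = 0.75) and 0.41 for the cord (adjusted p = 0.61). The knock-in changes its sequence, so its level is no check of the genotype label.

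**Figure D1:**
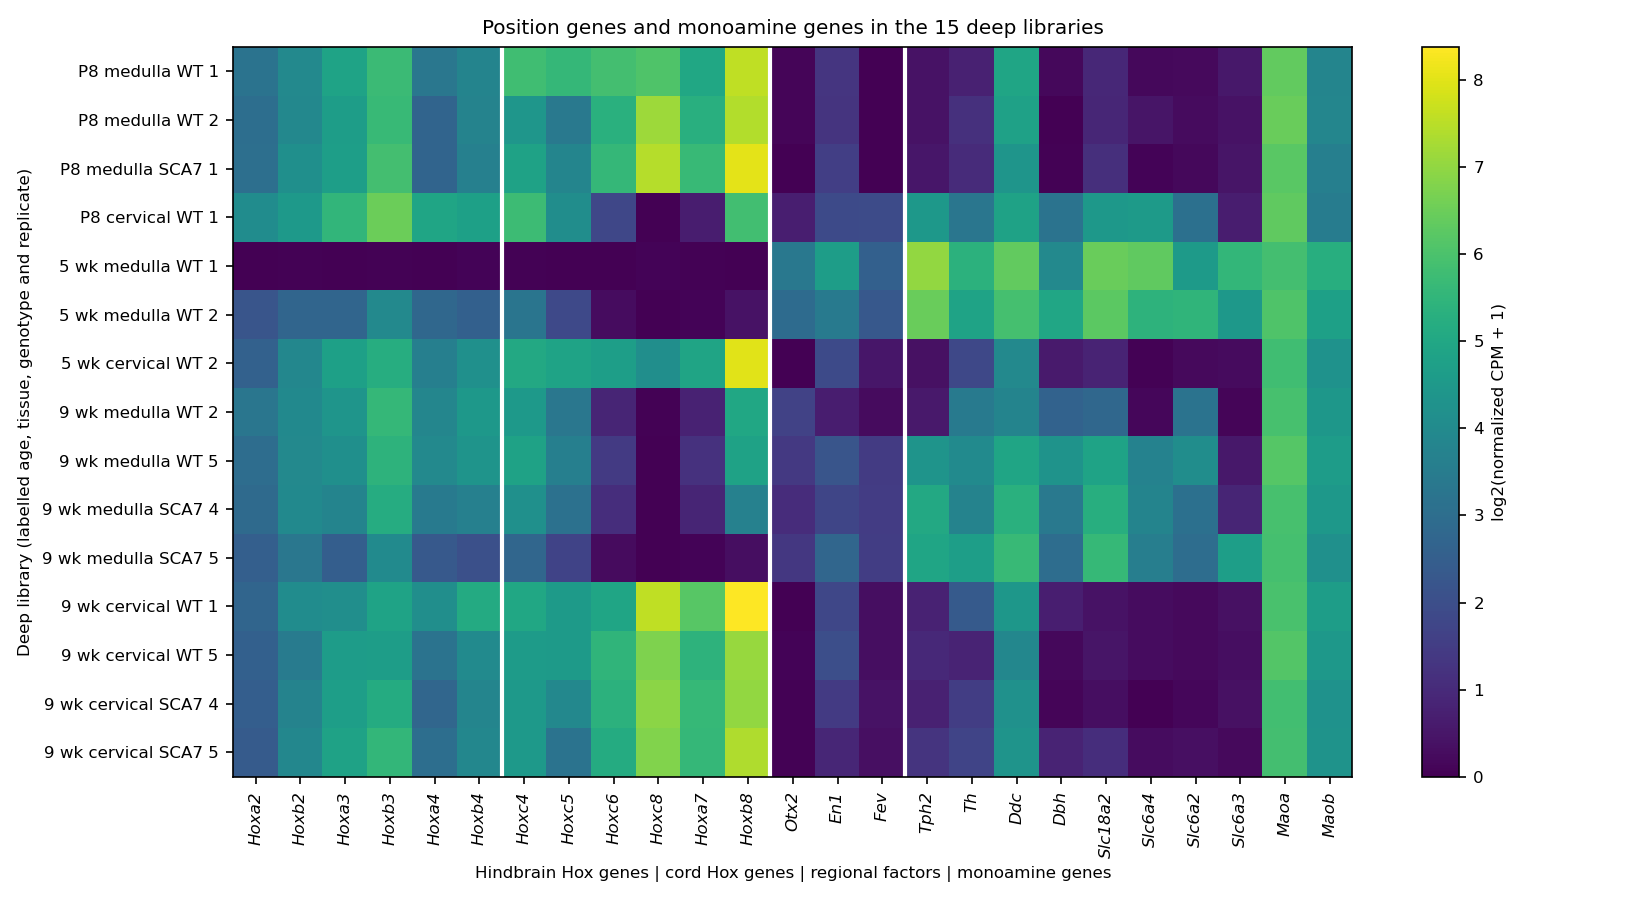
Level of position genes and of the 10 members in each of the 15 deep libraries, as log2(CPM + 1) in colour, with a line for each library under its labelled age, tissue and genotype. The 3 libraries labelled P8 medulla carry *Hoxc8* and little *Tph2*, *Dbh* or *Slc6a4*, the library labelled P8 cervical spinal cord has almost no *Hoxc8* and more of these 3 members, and the 5-week medulla WT replicate 1 lacks Hox genes.

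In the deep 9-week medulla libraries the breakdown enzyme *Maoa* was the most abundant member per length of transcript. It lay between 14 and 17.1 CPM per kb in the 4 deep libraries, and the next, *Maob*, was at 7.45 ± 0.974 CPM per kb (SD, n = 4), with ranges that did not overlap. *Ddc* (7.29 ± 3.45), *Tph2* (7.08 ± 5.01), *Th* (6.62 ± 2.8), *Slc18a2* (5.7 ± 3.42) and *Dbh* (3.76 ± 2.26) followed in CPM per kb, and *Slc6a4* (1.98 ± 1.31), *Slc6a3* (1.92 ± 3.57) and *Slc6a2* (1.54 ± 0.682) were lowest. From *Maob* down, the ranges of all neighbours in this order overlapped. In the deep 9-week cord libraries the order began in the same way, with *Maoa* at 14.7 ± 1.37, *Maob* at 7.38 ± 0.956 and *Ddc* at 3.98 ± 0.669 CPM per kb, and these 3 did not overlap with each other or with *Th*. The synthesis and transport genes below them lay between 0.965 ± 0.593 CPM per kb for *Th* and 0.029 ± 0.011 CPM per kb for *Slc6a2*, with overlapping ranges of neighbours.

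**Figure D2:**
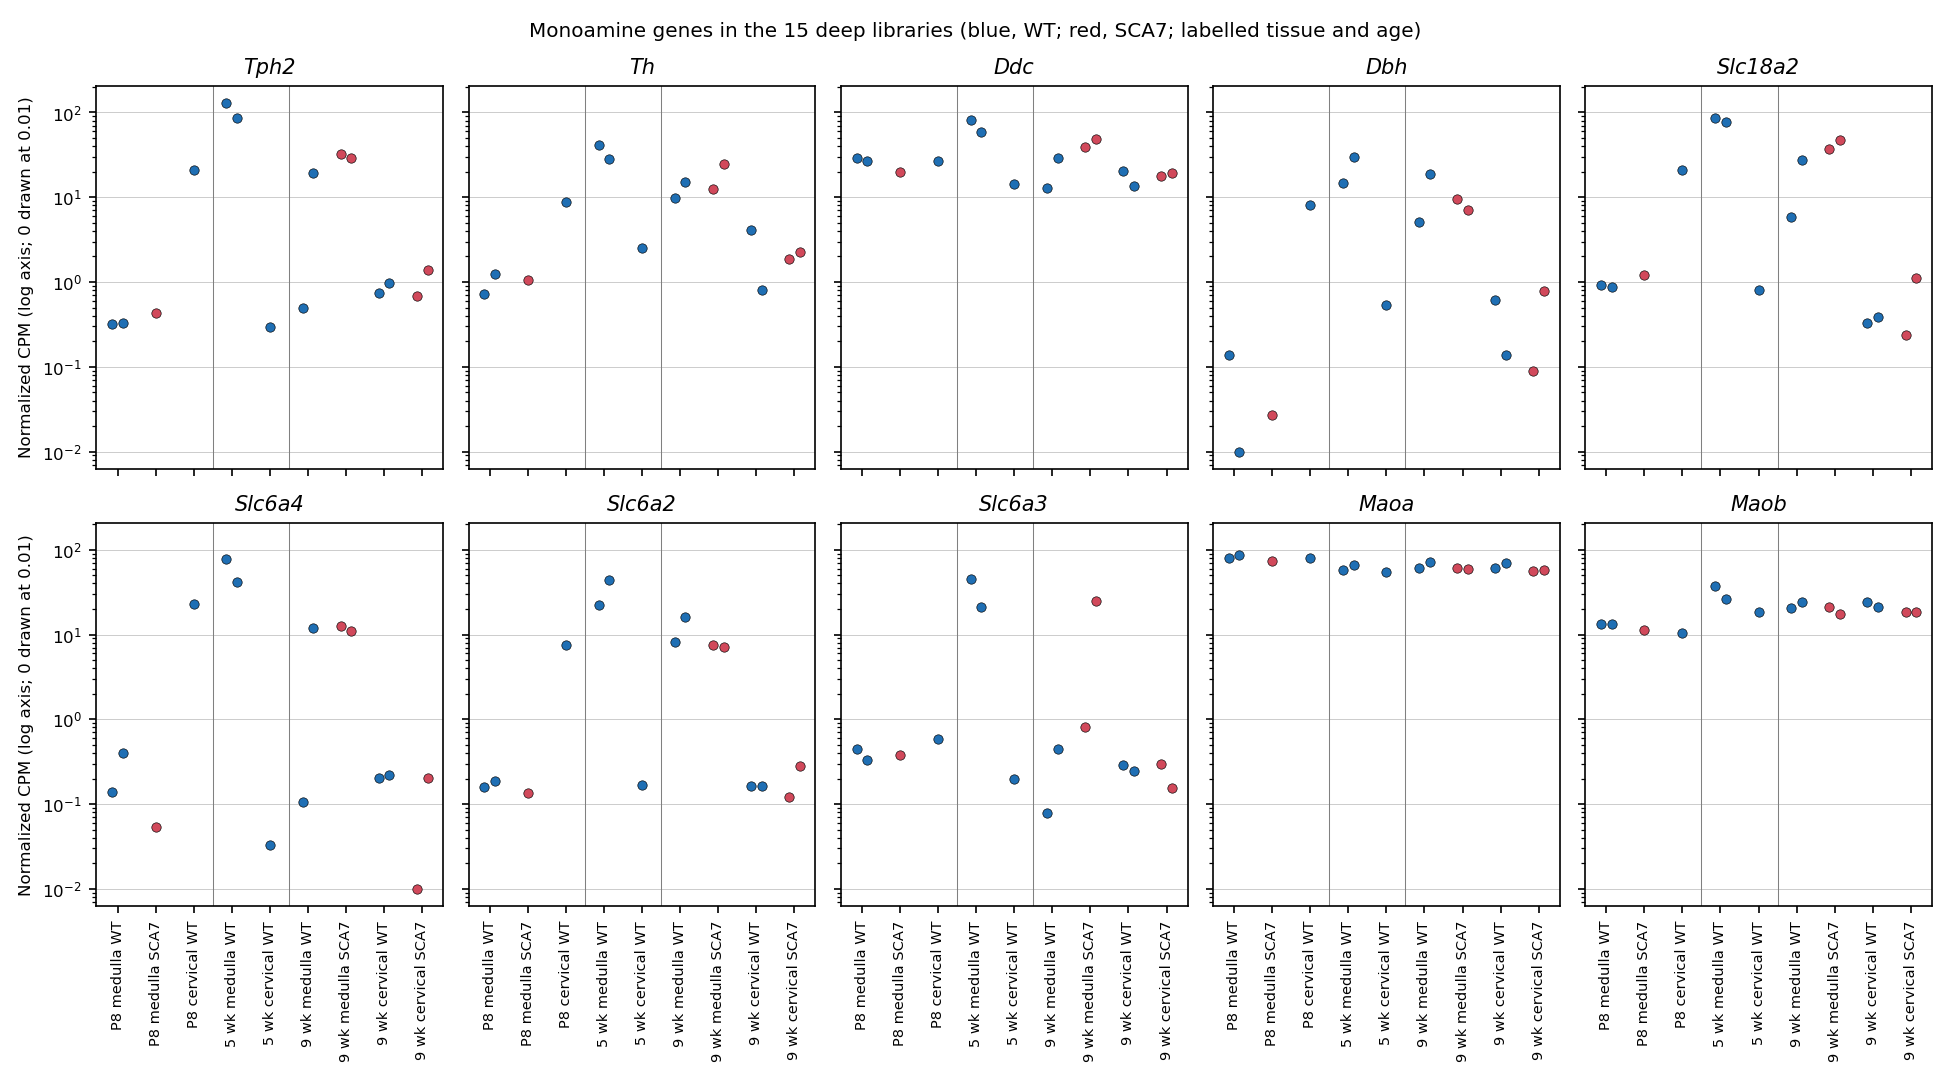
Normalized CPM of each member in the 15 deep libraries on a log axis, 1 point for each library, with 0 drawn at 0.01 CPM, blue for WT and red for SCA7. The synthesis and transport genes other than *Ddc* span more than 10-fold across these libraries, while *Maoa* stays between 54.8 and 86.8 CPM and *Maob* between 10.4 and 37.2 CPM.

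At 9 weeks the monoamine synthesis and transport genes were lower in the cervical spinal cord than in the medulla of the same mice, and the breakdown enzymes did not pass the test. In WT mice 7 of the 10 members were lower in the cord and none was higher, where 3.08% of the 19838 genes tested were lower. The median log2 difference of the members (cord over medulla) was -4.12, against 0.01 over all genes tested. In SCA7 mice 8 of 10 were lower, where 4.19% of the genes tested were lower, with a median of -4.53 against 0.01. In whole tissue, fewer cells of a type and less RNA per cell cannot be told apart. The libraries of a mouse were compared with each other. Without WT mouse 5, the only WT mouse with both libraries deep, *Th* (-1.66 without its cord library) and *Ddc* (-0.69) lost their call in WT. The calls over all genes, in either direction, fell from 1514 to 37 without that cord library. With the deep libraries alone 2 members were called in WT and 1 in SCA7. Over all genes the calls then fell from 1514 to 228 in WT and from 1270 to 63 in SCA7.

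*Tph2* (chr10:115078641-115185022, minus strand of GRCm38.p6), the brain enzyme of serotonin synthesis, had 3, 19, 2, 10 and 691 counts in the medulla of WT replicates 1 to 5 and 0, 1, 2, 1239 and 1019 counts in that of SCA7 replicates 1 to 5. In the cord it had 18, 0, 0, 0 and 35 counts in WT and 0, 0, 0, 23 and 54 counts in SCA7. Replicates 2 and 5 of the WT medulla and 4 and 5 of the SCA7 medulla were the deep ones, and replicate 2 stood apart from the other 3 at 0.498 CPM, against 19.1, 32.5 and 29.3 CPM. In the 4 deep cord libraries the level was 0.688 to 1.38 CPM, above WT replicate 2 of the medulla and below the other 3 deep medulla libraries. The log2 difference was -4.43 in WT (standard error 0.32, adjusted p = 2.09e-08) and -4.89 in SCA7 (standard error 0.23, adjusted p = 1.36e-11). Both standard errors follow from the F value of the test and do not measure the spread between the medulla libraries given above. With the deep libraries alone and no mouse block, the values were -3.575 in WT (adjusted p = 0.19) and -4.899 in SCA7 (adjusted p = 0.29). Within the 3 mice whose libraries were both deep the medulla was 19.8-fold higher in WT mouse 5 and 47.3-fold and 21.2-fold higher in SCA7 mice 4 and 5.

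*Slc6a4* (chr11:76998597-77032343, plus strand), the serotonin transporter, showed the same pattern. In the medulla it had 2, 4, 4, 7 and 435 counts in WT replicates 1 to 5 and 1, 1, 2, 485 and 380 counts in SCA7 replicates 1 to 5. In the cord the counts were 5, 0, 0, 0 and 8 in WT and 0, 0, 0, 0 and 8 in SCA7. WT replicate 2 was again low for a deep medulla library, at 0.105 CPM. *Slc6a4* was lower in the cord by a log2 difference of -5.89 in WT (adjusted p = 4.50e-08) and -6.66 in SCA7 (adjusted p = 1.17e-10). *Fev*, a transcription factor of serotonin neurons, was also low in WT replicate 2 (0.18 CPM, against 1.74 to 1.87 CPM in the other 3 deep medulla libraries). This library was also the lowest of the 4 in *Dbh* (5.17 CPM), *Th*, *Ddc* and *Slc18a2*, by less, and was not the lowest in *Slc6a2* (8.13 CPM).

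*Dbh* (chr2:27165507-27183204, plus strand), which turns dopamine into noradrenaline, had 4, 197, 2, 5 and 682 counts in the WT medulla and 1, 2, 2, 362 and 243 counts in the SCA7 medulla, in the order of the replicates. In the cord it had 15, 0, 0, 0 and 5 counts in WT and 0, 0, 0, 3 and 31 counts in SCA7. All deep cord libraries, at 0.0898 to 0.793 CPM, were below all deep medulla libraries, at 5.17 to 18.9 CPM. The log2 difference was -6.61 in WT (standard error 0.54, adjusted p = 5.64e-08) and -4.17 in SCA7 (standard error 0.37, adjusted p = 1.25e-07). *Slc6a2* (chr8:92960470-93001667, plus strand), the noradrenaline transporter, differed by -7.04 in WT (adjusted p = 4.58e-08) and -5.10 in SCA7 (adjusted p = 3.22e-08). DESeq2 ended both calls, with -4.49 in WT (adjusted p = 0.36) and -2.37 in SCA7. Its 4 deep medulla libraries lay between 7.03 and 16.1 CPM and its 4 deep cord libraries between 0.12 and 0.282 CPM, so the tissues did not overlap.

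*Slc18a2* (chr19:59260878-59296012, plus strand), which serves all 3 amines, had 4, 226, 1, 5 and 1005 counts in the WT medulla and 0, 2, 1, 1426 and 1663 counts in the SCA7 medulla. In the cord it had 8, 0, 0, 0 and 14 counts in WT and 0, 0, 0, 8 and 44 counts in SCA7. The log2 difference was -6.28 in WT (standard error 0.33, adjusted p = 1.56e-10) and -5.95 in SCA7 (standard error 0.22, adjusted p = 1.20e-13). It was the only member whose WT difference passed under all 26 alternatives, with a largest adjusted p of 0.045. The exons of an antisense gene overlap those of *Slc18a2*, and whether the counting used strand is not given in the sources used here.

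*Th* (chr7:142892779-142899995, minus strand) kept a higher level in the cord than the noradrenaline genes. In the deep libraries it was at 9.91 and 15.3 CPM in the WT medulla and 12.4 and 25 CPM in the SCA7 medulla, against 4.16 and 0.798 CPM in the WT cord and 1.89 and 2.28 CPM in the SCA7 cord, without overlap. Its log2 difference was -3.80 in WT (standard error 0.39, adjusted p = 2.54e-06) and -3.11 in SCA7 (standard error 0.27, adjusted p = 1.48e-07), where DESeq2 gave -2.59 and no call. *Ddc* (chr11:11814101-11898144, minus strand), the decarboxylase of both pathways, differed least of the genes that passed, with 12.9 to 49.0 CPM in the deep medulla libraries and 13.6 to 20.6 CPM in the deep cord libraries. WT replicate 2 was the only deep medulla library below the cord libraries, and the other 3 were above them. Its log2 difference was -1.07 in WT (adjusted p = 8.49e-04) and -1.27 in SCA7 (adjusted p = 1.93e-06), and it lost its call under 10 of 26 alternatives in WT and 8 of 26 in SCA7, DESeq2 among them in each genotype.

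*Maoa* (chrX:16619698-16687812, plus strand) and *Maob* (chrX:16709281-16817366, minus strand), which lie next to each other, did not pass the test between tissues, and their ranges overlapped. In the deep 9-week libraries *Maoa* was at 58.5 to 71.2 CPM in the medulla and 56.8 to 69.0 CPM in the cord, and *Maob* at 17.3 to 23.9 and 18.4 to 24.1 CPM. The 95% interval of the log2 difference was -0.53 to 0.26 for *Maoa* and -0.51 to 0.17 for *Maob* in WT, and -0.45 to 0.16 and -0.32 to 0.18 in SCA7. The shallow libraries gave lower *Maoa* values in the cord, with 16 counts over 6 libraries, equal to 20.9 CPM (exact Poisson 95% interval 11.9 to 33.9, counting error only). In the shallow medulla libraries it had 40 counts over 6 libraries, equal to 51.9 CPM (37.1 to 70.7), without overlap of the intervals. For *Maob* they overlapped (2.87 to 17.0 CPM in the cord and 3.65 to 18.7 CPM in the medulla). The *Maoa* interval of the shallow cord libraries lay below all deep cord libraries, a gap larger than counting error. So did the *Maob* interval of the shallow cord libraries, while that of the shallow medulla libraries reached into the deep range. For *Slc6a4* the gap went the other way in the medulla. Its shallow interval was 12.9 to 35.3 CPM and its deep libraries were at 0.105 to 12.7 CPM. The cause of these gaps was not tested.

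**Figure D3:**
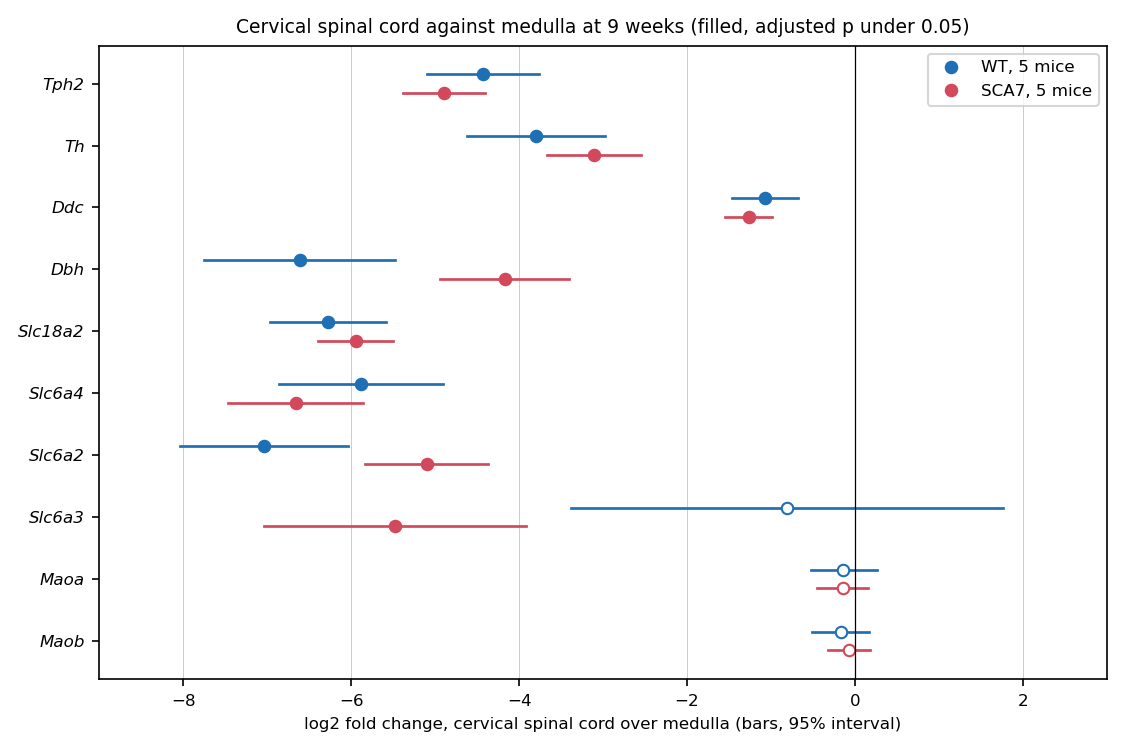
Log2 fold change of the cervical spinal cord over the medulla at 9 weeks for each member, in WT (blue) and SCA7 mice (red), with 95% intervals and filled points where the adjusted p was under 0.05. From *Tph2* to *Slc6a2* all points are filled and below 0 in both genotypes, *Slc6a3* is filled in SCA7 only, and the intervals of *Maoa* and *Maob* hold 0.

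*Slc6a3* (chr13:73536128-73578672, plus strand), the dopamine transporter and a marker of midbrain dopamine neurons, was near 0 in most libraries and high in a few. At 9 weeks it had 0, 3, 0, 0 and 16 counts in the WT medulla and 0, 0, 0, 31 and 873 counts in the SCA7 medulla. SCA7 replicate 5 alone was at 25.1 CPM, and the other 3 deep medulla libraries were at 0.0786, 0.443 and 0.814 CPM. At 5 weeks it was high in 3 of the 4 medulla libraries, with 45.6 and 21.2 CPM in WT and 11 counts in the shallow SCA7 replicate 1, and at 0 counts in SCA7 replicate 2. The deep cord libraries of all ages other than P8 were at 0.154 to 0.299 CPM, where no library stood out.

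*Slc6a3* was the only member called between SCA7 and WT in the 9-week medulla, where 6.97% of the 19157 genes tested were called. Its log2 fold change was 5.55 (standard error 1.15, adjusted p = 0.0095). Without SCA7 replicate 5 it was 1.63 (adjusted p = 0.11), and without WT replicate 2 it was 4.79 (adjusted p = 0.096). DESeq2 gave 3.12 with no adjusted p, and the bias-adjusted form of the edgeR test 5.12 (adjusted p = 0.25). Its tissue difference in SCA7 mice, -5.48, was -1.42 without the cord library of mouse 5 and -1.26 with DESeq2, neither of them called, and the WT difference of -0.81 (interval -3.38 to 1.76) did not pass the test.

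Some other genes of the midbrain or of its border were high with *Slc6a3* in the same libraries. Those named next are part of a list of 10 midbrain dopamine neuron genes, and the values of the rest in SCA7 replicate 5 are not given here. In SCA7 replicate 5 *En1* was at 5.82 CPM (0.60 to 3.65 CPM in the other 3 deep 9-week medulla libraries), *Pitx3* at 0.58 CPM (0.05 to 0.08 CPM), *Chrna6* at 5.04 CPM (0.55 to 1.27 CPM) and *Foxa1* at 0.89 CPM (0.00 to 0.10 CPM), all known from midbrain dopamine neurons. *Hoxb8*, a Hox gene of the caudal hindbrain and cord, was at 0.23 CPM in it and at 11.7 to 30.9 CPM in the others. *Pitx3* and *Foxa1* were the 2 genes called higher in the medulla of SCA7 mice among 9 tested of this list, where 874 of all 19157 genes tested were higher. The summed level of the list was 8.36 to 45.8 CPM in SCA7 and 16.3 to 65.6 CPM in WT (31.1 to 45.8 and 20.6 to 33.6 CPM in the deep libraries), with none of its genes without a count in either group. The deep 5-week WT libraries showed the same genes, with *Pitx3* at 0.79 and 0.55 CPM, *Chrna6* at 10.1 and 5.02 CPM and *Foxa1* at 2.5 and 0.99 CPM, and *Hoxb8* at 0.00 and 0.31 CPM. In the shallow 5-week SCA7 replicate 1, with 11 counts of *Slc6a3*, *Chrna6* had 3 counts, *En1* 2, *Th* 7 and *Hoxb8* 0, and *Pitx3*, *Lmx1a*, *Foxa1*, *Foxa2* and *Otx2* had 0. The part of the position genes in the *Slc6a3* result was not tested.

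No other member was called between SCA7 and WT in the 9-week medulla. *Tph2* had the next largest log2 fold change, 1.48 (interval -0.17 to 3.13, adjusted p = 0.32), and WT replicate 2 with its low *Tph2* was 1 of the 2 deep WT libraries. Without it the value was -0.49 (adjusted p = 0.88), and with all libraries DESeq2 gave -0.69 and the bias-adjusted edgeR test -0.23, so that the direction depended on that library and on the tool. *Slc6a2* was the only other member with an edgeR p under 0.05 before adjustment, with a log2 fold change of -0.83 (interval -1.56 to -0.10, adjusted p = 0.18). It had 5, 310, 0, 4 and 582 counts in WT and 0, 0, 0, 287 and 244 counts in SCA7, and at 8.13 and 16.1 CPM the deep WT libraries were above the deep SCA7 libraries at 7.54 and 7.03 CPM. *Dbh* was at -0.58 (interval -1.48 to 0.32), *Th* at 0.49 (interval -0.19 to 1.16), *Ddc* at 0.55 (interval -0.38 to 1.47, and called at 1.01 with an adjusted p of 0.033 without SCA7 replicate 2), *Slc18a2* at 0.68 (interval -0.62 to 1.98) and *Slc6a4* at 0.80 (interval -1.04 to 2.63). SCA7 replicate 2 had 396417 counts, the most of all shallow libraries, yet 1 count equals 6.7 CPM in it. In SCA7 replicate 3, with 124902 counts, 1 count equals 7.26 CPM. The values of replicate 2 thus rest on an unusual TMM scaling. The narrowest intervals were those of *Maob*, -0.57 to 0.30, and *Maoa*, -0.70 to 0.35.

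In the 9-week cord none of the 9 members tested was called, where 5.06% of the 19263 genes tested were. No member had an unadjusted p under 0.05 in edgeR, and DESeq2 called none, with no adjusted p for 5 of them. *Slc6a4* was too low to test. *Maoa* had 1508, 4, 4, 2 and 2508 counts in WT and 3, 1, 2, 1899 and 2230 counts in SCA7, and its log2 fold change was -0.37 (interval -1.21 to 0.48). *Maob* was at -0.18 (interval -1.10 to 0.74). *Slc18a2* was highest of the members, at 0.92 (interval -0.14 to 1.97, adjusted p = 0.38), with 1.13 CPM in SCA7 replicate 5 against 0.239 to 0.385 CPM in the other deep cord libraries. The change between genotypes was called as different between the tissues for 0 of the 10 members by edgeR and by DESeq2, where 2.78% of the 19838 genes tested were called by edgeR, and 3 members had an unadjusted p under 0.05. Those 3 differences (cord minus medulla) were 2.44 for *Dbh* (interval 0.86 to 4.03, adjusted p = 0.11), 1.94 for *Slc6a2* (interval 0.32 to 3.57, adjusted p = 0.29) and -4.67 for *Slc6a3* (interval -8.11 to -1.22, adjusted p = 0.20). Without WT mouse 1 the differences of *Dbh* (2.87 without its cord library) and *Slc6a3* (-4.69) were called, and that of *Slc6a3* also without WT mouse 2 (-4.68) or SCA7 mouse 4 (-6.48).

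**Figure D4:**
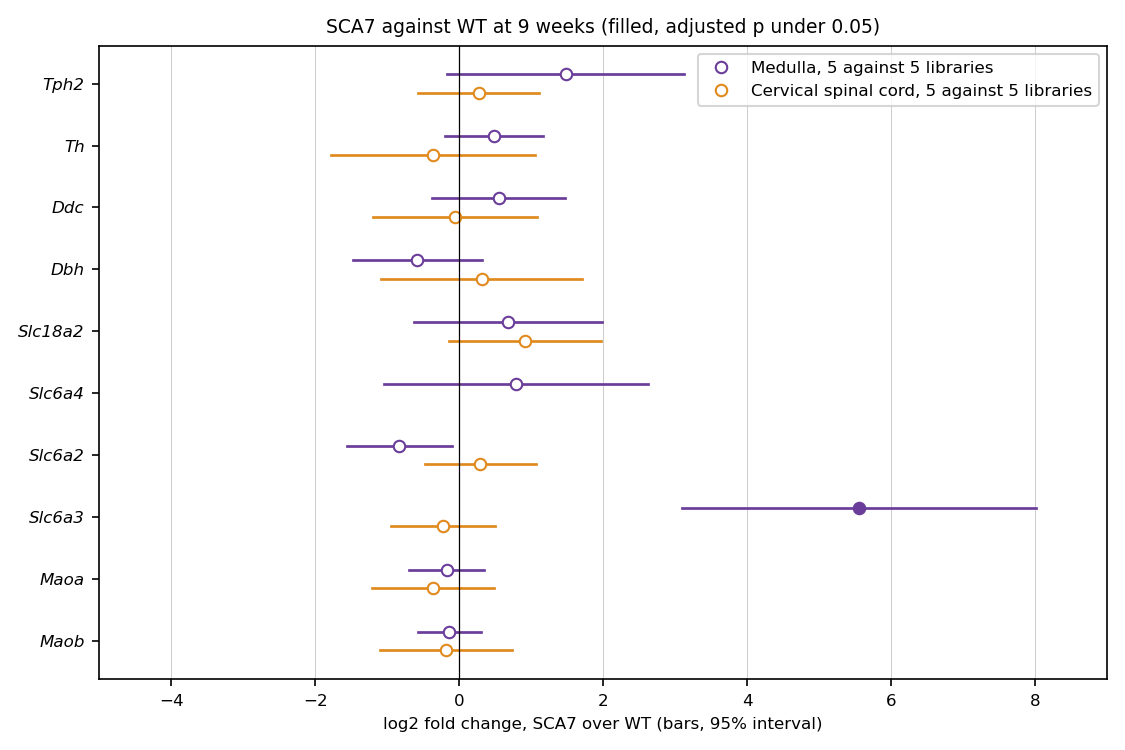
Log2 fold change of SCA7 over WT at 9 weeks for each member in the medulla (purple) and the cervical spinal cord (orange), with 95% intervals and filled points where the adjusted p was under 0.05. *Slc6a3* in the medulla is the only filled point, *Slc6a4* could not be tested in the cord, and every other interval but that of *Slc6a2* in the medulla holds 0.

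At 5 weeks no member was called between genotypes by edgeR or DESeq2, in the medulla (10 tested, where 0.846% of 18432 genes were called) or the cord (6 tested, where 0.728% of 17162 genes were called). *Tph2* in the medulla was the only member with an unadjusted p under 0.05, as were 1992 genes in the medulla and 707 in the cord. The medulla libraries were deep in WT and shallow in SCA7 mice, and genotype there cannot be told apart from depth. *Tph2* had 5332 and 3304 counts in WT and 6 and 4 counts in SCA7, equal to 128 and 86.3 CPM and to 52.7 and 33.9 CPM, with a log2 fold change of -1.18 (adjusted p = 0.43). The 5-week WT medulla libraries were the highest of all deep libraries in *Tph2*, *Slc6a4*, *Slc18a2*, *Slc6a2*, *Th* and *Ddc*. In the libraries labelled P8 medulla no member was called by edgeR or DESeq2, and edgeR called 0% of 20564 genes, with 559 genes at an unadjusted p under 0.05, *Slc6a4* among them.

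By the labels, most synthesis and transport genes were higher in the older medulla than at P8, and these values rest on libraries that go against their tissue label. In WT 9 of 10 members were higher at 5 weeks than at P8, where 6.24% of the 21133 genes tested were higher, and 6 of 10 at 9 weeks, where 7% were. In SCA7 medulla 7 of 10 were higher at 9 weeks than at P8, where 6.22% were. *Tph2*, for example, was at 0.323 and 0.329 CPM in the WT libraries labelled P8 medulla and 0.429 CPM in the deep SCA7 library, all near the level of the 9-week cord, and at 21.0 CPM in the WT library labelled P8 cervical spinal cord. *Dbh* was at 0.14, 0.00 and 0.03 CPM against 8.19 CPM, *Slc6a4* at 0.14, 0.40 and 0.05 CPM against 22.9 CPM and *Slc18a2* at 0.92, 0.87 and 1.21 CPM against 20.9 CPM, in the same order. When 9 weeks was compared with 5 weeks instead, without the libraries labelled P8, 1 member was called in WT and 0 in SCA7. Over all genes 14 were then called in WT and 1 in SCA7, in place of 4598 and 3403. The log2 values of *Tph2* over 5 weeks were -2.94 in WT and -0.87 in SCA7, and those over P8 were 5.08 and 5.85. In SCA7 cord 2 of 10 were lower at 9 weeks than at P8 (*Slc6a2*, -5.03, and *Slc6a4*, -6.29), where 2.77% of 19880 genes were lower, and both rested on 3 and 4 counts in the shallow library labelled P8 cervical SCA7 replicate 1. The change between genotypes was called as different between 9 weeks and P8 for 0 of 10 members by edgeR and by DESeq2, where edgeR called 0.0237% of the genes tested, and *Ddc* and *Slc6a3* had an unadjusted p under 0.05.

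*Maob* was lower in all deep libraries labelled P8, at 10.4 to 13.2 CPM, than in all older deep libraries, at 17.3 to 37.2 CPM, in medulla and cord labels alike. Its log2 difference in WT medulla was 1.14 at 5 weeks (adjusted p = 0.016) and 0.48 at 9 weeks (adjusted p = 0.28). *Maoa* was at 73.9 to 86.8 CPM in the deep libraries labelled P8 and at 54.8 to 71.2 CPM in the older ones, also without overlap, and did not pass the test (-0.57 at 5 weeks, adjusted p = 0.20, and -0.51 at 9 weeks, adjusted p = 0.19). So the oxidases lay in opposite order by labelled age.

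Across the 15 deep libraries the synthesis and transport genes other than *Ddc* and *Slc6a3* moved together, with r = 0.903 between *Tph2* and *Dbh* and 0.891 between *Slc6a2* and *Slc6a4*. These libraries differ in tissue, so r does not show whether the serotonin and noradrenaline genes form separate sets. In the 9-week medulla WT replicate 2 they parted. *Tph2* (0.498 CPM) and *Slc6a4* (0.105 CPM) were near the level of the cord there. *Dbh* (5.17 CPM) and *Slc6a2* (8.13 CPM) were above all deep 9-week cord libraries. The 5 genes most like *Tph2* among 15288 were *Slc6a4* (Pearson r = 0.986 of log2(CPM + 1)), *Fev* (0.977), *Slc18a2* (0.959), *Gata3* (0.948) and *Gchfr* (0.926), which regulates the enzyme GTP cyclohydrolase. Those most like *Dbh* were *Slc6a2* (0.985), *Slc18a2* (0.953), *Irx4* (0.942), *Th* (0.94) and *Sfxn3* (0.919). Those most like *Maob* were *Clmn* (0.929), *Ctxn3* (0.922), *Ankrd26* (0.921), *B230369F24Rik* (0.921) and *Rasd1* (0.919), none of them a member. *Maoa* and *Maob* had r = -0.609 with each other. The libraries include those of 2 tissues, 3 ages and the same mice, so these are descriptions over 15 points that are not independent.

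**Figure D5:**
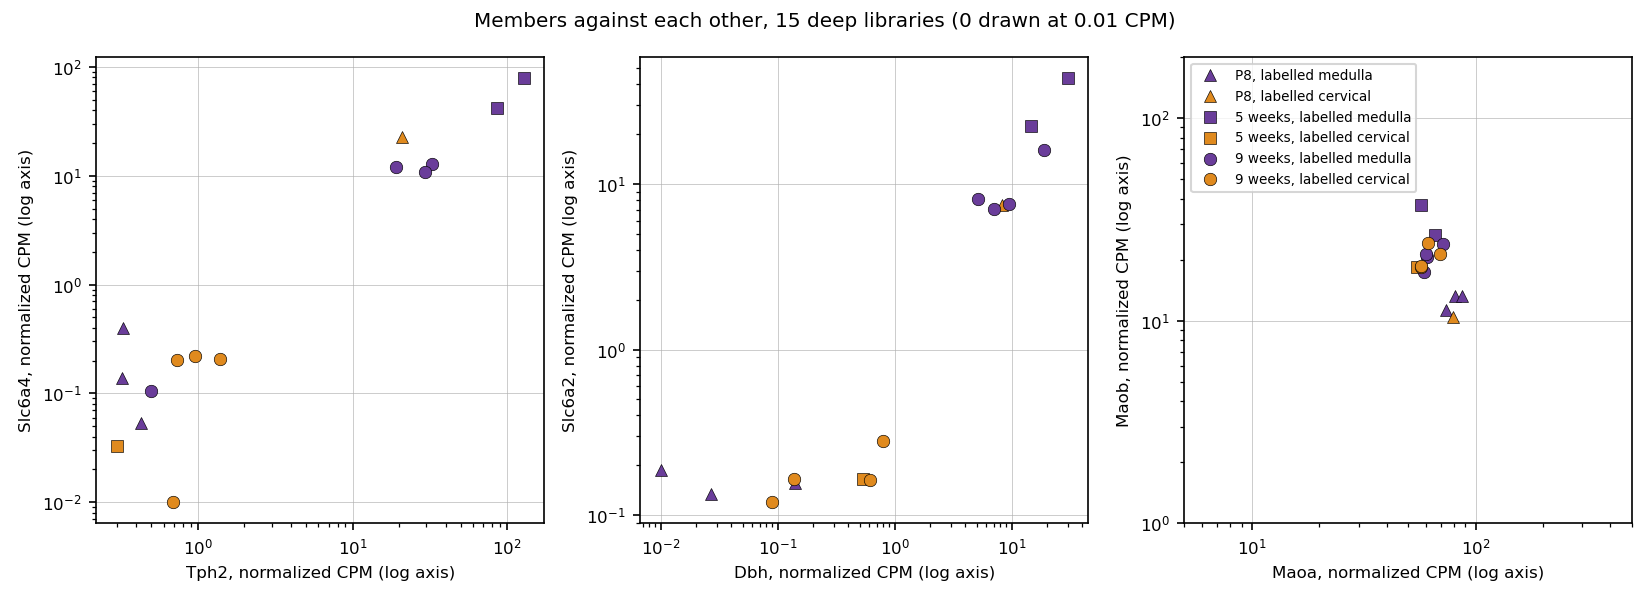
Pairs of members in the 15 deep libraries on log axes in normalized CPM, with colour for the labelled tissue, shape for the age and 0 drawn at 0.01 CPM. *Tph2* with *Slc6a4* and *Dbh* with *Slc6a2* form a low and a high group of libraries, the libraries labelled P8 lie in the group of the other tissue, while the libraries labelled P8 have the lowest *Maob* and highest *Maoa*. The 9-week medulla WT replicate 2 lies in the low group of *Tph2* and in the high group of *Dbh*.

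Of the other genes of the pathway, *Qdpr* fell in SCA7 mice in both tissues at 9 weeks. It encodes dihydropteridine reductase, which recycles tetrahydrobiopterin, the cofactor of *Th* and *Tph2*. In the medulla it was at 252, 442, 342, 336 and 437 CPM in WT and 117, 194, 124, 170.1 and 178 CPM in SCA7. The cord libraries had 1130, 417.5, 299.7, 549.7 and 484.5 CPM in WT and 84.3, 100.4, 137.4, 204.5 and 178.3 CPM in SCA7. All WT libraries were above all SCA7 libraries in each tissue. The log2 fold change was -1.17 in the medulla (standard error 0.20, adjusted p = 0.0033) and -2.0 in the cord (standard error 0.32, adjusted p = 0.0021). In the medulla it passed under all 18 alternatives, and in the cord under 17 of 18, the exception being the deep libraries alone (adjusted p = 0.17). Its 5-week values were -0.95 for the medulla (adjusted p = 0.22) and -0.25 for the cord (adjusted p = 0.94).

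*Qdpr* was 1 of 8 cofactor genes, all tested, and the only one called in each tissue, with list medians of 0.28 in the medulla and -0.43 in the cord (0.08 and -0.02 over all genes tested). Glial genes moved with it. In the medulla 3 of 8 oligodendrocyte and 5 of 10 astrocyte genes were lower and none higher, and in the cord 7 of 8 and 5 of 10. Over all genes 461 of 19157 were lower in the medulla and 682 of 19263 in the cord. The summed level of the astrocyte list was 3990 to 5230 CPM in WT and 1610 to 2250 CPM in SCA7 medulla, and 4430 to 8040 and 2040 to 2930 CPM in the cord. That of the oligodendrocyte list was 17700 to 44000 and 9380 to 37000 CPM in the medulla, and 31400 to 104000 and 15000 to 35900 CPM in the cord. No gene of either list was without counts in a group, and their part in the *Qdpr* result was not tested.

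Among 20 further enzymes and transporters of monoamines, 16 were tested in each tissue. Between genotypes at 9 weeks, 6.97% of all genes tested were called in the medulla and 5.06% in the cord. The single calls in the lists of this paragraph are to be read beside these shares. *Sult1a1*, a sulfotransferase that conjugates phenols and amines, was called higher in the SCA7 medulla at 1.93 (standard error 0.17, adjusted p = 3.39e-05) and was at 1.41 in the cord (adjusted p = 0.13). In the deep medulla libraries it was at 7.71 and 8.72 CPM in WT and 31.4 and 28.7 CPM in SCA7. Its call was lost without WT replicate 2, without WT replicate 5 and in the bias-adjusted test. In the cord *Aldh1a1*, an aldehyde dehydrogenase, fell (-1.18, adjusted p = 0.011) and *Slc22a2*, an organic cation transporter, was called at -4.76 (adjusted p = 0.0040) on 2 and 14 counts in the deep WT libraries and 0 in all others. Of the receptor lists, *Htr3a* was called in the medulla (1.08, adjusted p = 0.015) and *Drd1* in the cord (1.58, adjusted p = 0.019). No other gene was called among the 12 serotonin and 9 adrenergic receptors tested in each tissue and the 4 (medulla) and 3 (cord) dopamine receptors. Of 7 serotonin neuron identity genes tested, 2 were lower in the cord than in the medulla in WT and 4 in SCA7, where 3.08% and 4.19% of all genes tested were. Between genotypes in the medulla, *Gata2* of this list was called higher (0.83) and *Tfap2b*, a factor of noradrenaline neurons, lower (-0.93). *Fev* was lower in the cord, at -3.01 in WT (adjusted p = 0.0016) and -2.65 in SCA7 (adjusted p = 1.61e-04). *Gch1*, GTP cyclohydrolase, which makes the cofactor, was at -1.34 in WT (adjusted p = 0.028) and -1.87 in SCA7 (adjusted p = 1.90e-04).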

How the data were processed

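RNA from 35 tissue libraries was sequenced by the authors. Per the study's methods and the submitters' processing notes, reads were mapped to GRCm38 (mm10), uniquely mapped reads were kept and counted per gene, and the authors deposited whole-number counts per gene that are not normalized. The aligner, the counter and the strand setting are not given in the sources used here. Groups were taken from the labels, and replicates are separate mice.

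A gene entered a fit with 10 or more counts in any of its libraries and was tested with the quasi-likelihood F test of edgeR 4.0.16 (TMM scaling, R 4.3.3), with Benjamini-Hochberg adjustment over all genes tested and a threshold of 0.05. Genotypes were compared within each tissue and age, tissues within mice (mouse as a block, since the labels name the mouse of each library), and ages within genotype. CPM used TMM-scaled library sizes over all libraries, and CPM per kb the summed exon length of GENCODE M21. DESeq2 1.42.0, other filters and scalings, the deep libraries alone, a replicate block and leaving out each library were alternatives. A bias-adjusted edgeR test and a comparison without the libraries labelled P8 were added after seeing the data.

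Total counts were 28969003 to 99353286 in 15 libraries and 95917 to 396417 in 20, and the Poisson intervals cover counting error only. Outliers were sought with Dixon's test. The members and the gene lists were chosen with earlier results of these data known. All 10 members were named in every comparison, and from the other lists the called genes with the smallest adjusted p, the genes most like *Tph2*, *Dbh* and *Maob*, and those position genes that the labels were checked with. On simulated counts for the 9-week medulla (18982 genes), edgeR called 138 genes, 120 of them among the 200 changed, and DESeq2 called 59, all changed. The results of 1 gene of the lists are not reported here.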

Additional observations from a re-analysis of the deposited data

Results flagged for a closer look

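In 7 cases the highest library of a 9-week group lay far from the other 4 by Dixon's test. Its usual rate of chance flags, about 1 in 20 groups, assumes values of like precision. Each group here mixes 3 shallow and 2 deep libraries, so the number of flags cannot be set against that rate. *Slc6a3* was at 25.1 CPM (873 counts) in the medulla of SCA7 replicate 5 and at 0.443 CPM (16 counts) in that of WT replicate 5. In the cervical spinal cord, *Dbh* was at 0.793 CPM (31 counts) in SCA7 replicate 5 and at 0.612 CPM (15 counts) in WT replicate 1, *Slc18a2* at 1.13 CPM (44 counts) and *Slc6a4* at 0.205 CPM (8 counts) in SCA7 replicate 5. *Th* was at 17.2 CPM in the cord of WT replicate 4, which is 2 counts in a shallow library. The other 6 values came from deep libraries, and of them only that of *Slc6a3* in SCA7 replicate 5 is one that the 3 shallow libraries of the group could show.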

How the results depend on the processing

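For single genes, 3144 values under an alternative kept their side of the threshold, among them values that were not called and changed sign, 433 lost it, 18 gained it and 23 that were called in either fit turned direction. These counts include a comparison of 9 weeks with 5 weeks set against 9 weeks over P8, which is a different contrast. Its values among the 23 do not show the same result turning direction. In the 9-week medulla, 1 member was called, 0 with DESeq2 or the bias-adjusted test, and 0 to 2 when a library was left out. Over all genes 1335 were called, 70 with DESeq2 and 21 with the bias-adjusted test. Between tissues, 7 members were called in WT and 2 with the deep libraries alone, against 1514 and 228 over all genes. In SCA7 8 were called, 4 with DESeq2 and 1 with the deep libraries alone, against 1270, 70 and 63 over all genes. The difference between tissues called 0 members, and 0 to 2 when a library was left out. Over all genes it called 551, and 11 to 715 when a library was left out.

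Replicate numbers are shared between genotypes without a common animal, so the numbers do not pair the samples. The deviations of same-numbered 9-week medulla libraries had correlations from -0.777 to 0.929. Those of medulla and cord libraries of the same WT mouse ran from -0.689 (mouse 2, a deep and a shallow library) to 0.889 (mouse 5, both deep). These correlations therefore cannot decide whether samples are paired. With the replicate block, 2 members were called in the 9-week cord in place of 0, *Dbh* (2.33, adjusted p = 8.62e-04) and *Slc18a2* (1.51, adjusted p = 0.0056). Over all genes 1117 were called with it in place of 974. The mouse block pairs tissue libraries of the same mouse.

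For ages, the fit without the libraries labelled P8 compared 9 weeks with 5 weeks, a different contrast from 9 weeks over P8. It called 1 member in WT medulla, 0 in SCA7 medulla and 0 in SCA7 cord, against 6, 7 and 2 over P8. Over all genes it called 14, 1 and 6, against 4598, 3403 and 831, in the same order. Some log2 values over 5 weeks had the opposite sign to those over P8. In WT medulla these were *Th* (-1.40), *Tph2* (-2.94), *Dbh* (-0.71), *Slc6a2* (-1.33), *Slc6a4* (-3.11) and *Slc18a2* (-2.13). In SCA7 medulla they were *Th* (-0.94), *Tph2* (-0.87), *Slc6a3* (-2.15), *Slc6a4* (-0.70) and *Slc18a2* (-0.33), and in SCA7 cord *Slc6a2* (4.32). The 2 contrasts need not share a sign, so these values do not test the direction of the change from P8. When a library was left out, 0 to 8 members were called in SCA7 medulla and 0 to 3 in SCA7 cord, in each 0 without the SCA7 replicate 1 labelled P8. The cord values then ranged from -5.70 to 4.43 for *Slc6a2* and from -9.53 to 3.57 for *Slc6a4*. In SCA7 cord DESeq2 called 0 members and the bias-adjusted test 1, against 650 and 831 over all genes.

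Outside the members, leaving out a library moved the WT tissue difference of *Htr1a* between -1.01 and 0.716 and that of *Sult1a1* between -1.03 and 0.83 (-0.086 in the bias-adjusted test), the difference of the *Sult1a1* genotype change between tissues (cord minus medulla) between -0.93 and 0.917, all 3 turning without WT mouse 5, and the SCA7 tissue difference of *Htr5b* between -4.59 and 0.97, turning without SCA7 mouse 4. The cause was not tested. A filter of 10 counts in every library mostly left no member to test, and no fit of the deep libraries alone was possible at 5 weeks or for the ages in SCA7 cord.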
